A study of Mus musculus with 8 samples.

Results

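The receptor side of BMP signalling and its SMADs was followed in the fetal ovary through 10 genes: the type 1 receptors *Bmpr1a*, *Bmpr1b* and *Acvr1*, the type 2 receptors *Bmpr2*, *Acvr2a* and *Acvr2b*, the receptor SMADs *Smad1*, *Smad5* and *Smad9*, and the common SMAD *Smad4*. They were chosen by symbol, and all 10 were among the 25239 gene symbols of the count files. The RNA-Seq libraries came from whole ovaries of female E14.5 mouse embryos on a C57BL/6 background, each a pool of 2 ovary pairs. Of the 8 pools, 4 were controls with the genotype *Bmpr1a* fl/fl, and the other 4, called *Bmpr1a*-cKO, were *Bmpr1a* fl/fl with *Oct4*-Cre Cre/WT in addition. Both genotypes carried both floxed alleles, and every dam had received 1 mg 4-hydroxytamoxifen and 0.5 mg progesterone on each day from 9.5 to 11.5 dpc. The controls, littermates of the mutants, carried no Cre, so Cre and the loss of the receptor cannot be told apart. Cre is expressed under *Oct4* control in germ cells and is activated by 4-hydroxytamoxifen, and the somatic cells of these ovaries keep *Bmpr1a*. The embryos came from 6 litters, which the labels do not assign to libraries.

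BMP ligands bind a complex of type 1 and type 2 transmembrane serine/threonine kinase receptors. The type 2 kinase phosphorylates the type 1 receptor, which then phosphorylates SMAD1, SMAD5 or SMAD9 (also called SMAD8), and these enter the nucleus together with SMAD4 and regulate target genes. BMPR1A (ALK3), BMPR1B (ALK6) and ACVR1 (ALK2) are the type 1 receptors of BMPs. The type 2 receptors ACVR2A and ACVR2B also bind activins, and SMAD4 also serves the TGFβ and activin branch, whose receptor SMADs are SMAD2 and SMAD3. The values address how abundant each of these transcripts was in the fetal ovary, and whether any of them was higher in ovaries whose germ cells had lost *Bmpr1a*.

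Total counts ran from 8562961 to 15365052 per library. Expression is given as CPM, the counts scaled to a common library size after TMM normalisation, and levels of different genes are compared only as RPKM, which is that CPM per kilobase of exon. Log2FC is the log2 ratio of *Bmpr1a*-cKO over control, with its standard error (SE) and 95% interval, and the FDR is that of edgeR's quasi-likelihood test, adjusted over all 14249 genes tested. The counts per library were 64 to 133 for *Smad9*, the least abundant of the 10 genes, and 2602 to 5405 for *Smad5*, the most abundant. Markers of the tissue were present, with *Ddx4* at 106 to 179 CPM and *Dazl* at 282 to 615 CPM across the libraries. *Foxl2* stood at 113 to 122 CPM in control and at 72.9 to 88.2 CPM in *Bmpr1a*-cKO libraries (Log2FC of -0.57, FDR = 1.80e-05 by edgeR). The globin genes *Hbb-bt*, *Hbb-bs* and *Hba-a1* are listed at 0 in every library, although *Alas2*, an erythroid gene, had a mean of 32.8 CPM in control ovaries.

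All 10 genes passed the filter on low counts. At an FDR below 0.05, 5 of the 10 changed, against 29.8% of all genes tested. *Acvr2b*, *Acvr1*, *Smad1* and *Acvr2a* rose and *Smad9* fell. With 1 library left out the count of 5 became 3 (without control library 1 or *Bmpr1a*-cKO library 4) or 2 (without control library 4 or *Bmpr1a*-cKO library 2). Without control library 2, 4 were higher and 0 lower. Without control library 3 or *Bmpr1a*-cKO library 3, 3 were higher and 1 lower. Without *Bmpr1a*-cKO library 1, 4 were higher and 2 lower. The genes called differed too, with *Bmpr1a* called as lower without control library 1 or *Bmpr1a*-cKO library 4. The reported calls are 4 of 10 higher, where the background was 17.3%, and 1 of 10 lower, where it was 12.5%. The median Log2FC of the 10 genes was 0.046, and that of all genes tested was -0.0042. None was a DEG by the study's thresholds, an absolute Log2FC above 0.5 with an FDR below 0.05 (0 of 10 by edgeR, limma-voom and DESeq2, where edgeR called 10.2% of all genes), while 8 of 10 had an unadjusted p below 0.05 by edgeR, against 39.8% of all genes tested. The ranges of the genotypes did not overlap for 5 of the 10 genes, against 27.9% of all genes tested. With TMM scaling, in 4 of the 10 (*Acvr1*, *Acvr2a*, *Acvr2b* and *Smad4*) the mutant libraries were the higher ones, against 16.1%, and in 1 (*Smad9*) the lower ones, against 11.7%.

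**Figure D1:**
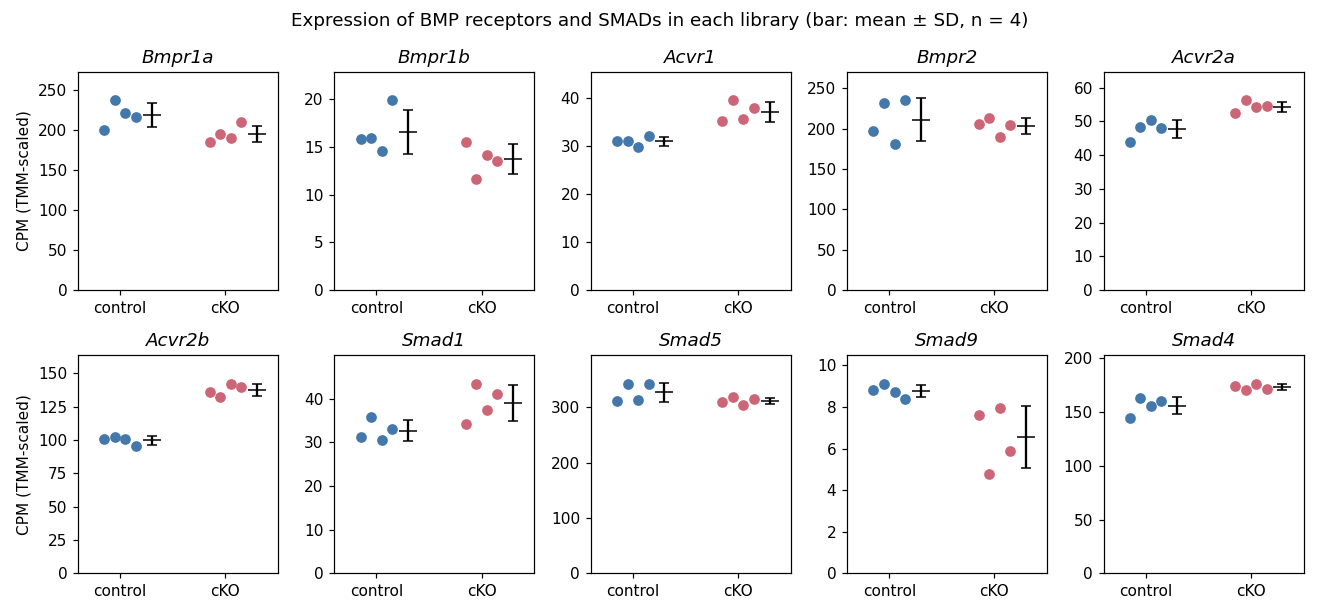
TMM-scaled CPM (y axis, from 0) of the 10 genes in each of the 4 control (blue) and 4 *Bmpr1a*-cKO (red) libraries; the black bar is the mean ± SD (n = 4). The genotypes are fully separated for *Acvr1*, *Acvr2a*, *Acvr2b*, *Smad9* and *Smad4*, and *Acvr2b* shows the widest gap, with controls at 95.2 to 102 CPM and mutants at 132 to 142 CPM.

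Levels per length spanned a wide range among the 10 genes. In control ovaries *Smad5* was highest at 44.0 ± 2.38 RPKM (SD, n = 4), followed by *Smad4* at 42.0 ± 2.19 RPKM, *Bmpr1a* at 34.3 ± 2.40 RPKM and *Acvr2b* at 25.4 ± 0.773 RPKM. The middle of the order held *Bmpr2* at 11.8 ± 1.46 RPKM, *Acvr2a* at 8.40 ± 0.479 RPKM, *Acvr1* at 6.42 ± 0.186 RPKM and *Smad1* at 5.21 ± 0.373 RPKM. *Bmpr1b*, at 2.78 ± 0.385 RPKM, and *Smad9*, at 1.63 ± 0.0557 RPKM, were lowest. *Smad5* stood at the 95.4th percentile of tested genes by control RPKM, *Bmpr1a* at the 93.2nd, *Acvr2b* at the 89.2nd, and *Smad9* at the 20.6th. Of the neighbours in this order, the ranges of *Smad5* and *Smad4* overlapped across control libraries, and the ranges of all other neighbours were apart. Within each control library *Smad5* was the higher of the pair, with *Smad4* at 0.930 to 0.994 of its level. In *Bmpr1a*-cKO ovaries *Smad4* led, *Smad5* came 2nd, *Acvr2b* 3rd and *Bmpr1a* 4th, the places below were as in control, and no neighbours overlapped. The order of *Acvr2a*, *Acvr1* and *Smad1* depended on the length used. With the longest transcript as the length in place of all exons, *Acvr1* came 6th, *Smad1* 7th and *Acvr2a* 8th.

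A pair of places in the order differed between the genotypes (chosen for description after the values were seen). Within each control library *Acvr2b* had fewer reads per kilobase than *Bmpr1a*, at 0.818, 0.697, 0.738 and 0.714 of its level. In the 4 mutant libraries the same ratio was 1.19, 1.10, 1.21 and 1.08, so that *Acvr2b* was the higher of the pair in all of them. With the longest transcript as the length the ratio was 0.809 to 0.949 in control and 1.25 to 1.41 in mutant libraries. *Smad4* relative to *Smad5* was 0.930 to 0.994 in control and 1.07 to 1.16 in mutant libraries. A ratio within a library does not depend on how the libraries are scaled, and it does not show which gene of a pair changed.

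**Figure D2:**
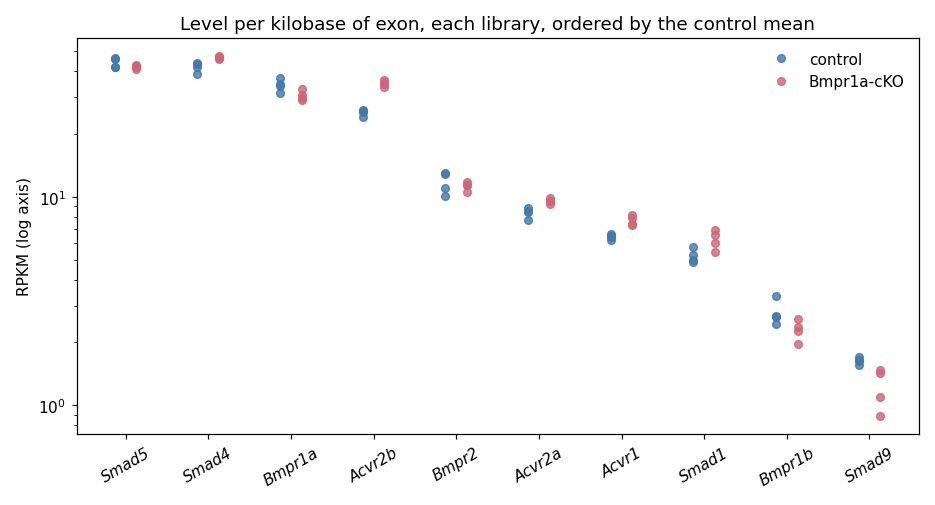
RPKM (y axis, log scale) of the 10 genes in each library, ordered from left to right by the control mean, with control libraries in blue and *Bmpr1a*-cKO libraries in red. *Smad5* and *Smad4* lead the order and *Smad9* closes it; *Acvr2b* lies below *Bmpr1a* in the control libraries and above it in the *Bmpr1a*-cKO libraries.

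*Bmpr1a* (chromosome 14, 34410734 to 34503341, minus strand, mm10), the receptor gene targeted by Cre, stood at 31.4, 37.2, 34.7 and 33.9 RPKM in control and at 29.1, 30.7, 29.9 and 32.9 RPKM in *Bmpr1a*-cKO ovaries. The highest mutant library lay above the lowest control library. On the CPM scale this was a mean of 218 ± 15.3 against 195 ± 10.5 (SD, n = 4 each), a Log2FC of -0.16 with a 95% interval of -0.30 to -0.026 and an FDR of 0.0692 by edgeR. In percent, the interval of the difference ran from -18.7% to -1.77%. Reads were summed over whole genes, so transcripts from the recombined allele that keep the other exons are counted too, and these values do not check the labels. Transcripts of the somatic cells, which keep *Bmpr1a*, are also in the sum. By qRT-PCR the study found *Bmpr1a* significantly lower in mutant ovaries at every stage it analysed. It also reported that BMPR1A staining was lost from germ cells, but not from somatic cells, at an earlier stage. *Gm17110* overlaps *Bmpr1a* on the opposite strand, and whether the counting used strand is not given in the sources used here. The call depended on the setting: the FDR was 0.0394 without control library 1, 0.0415 without *Bmpr1a*-cKO library 4, 0.0470 with DESeq2 and 0.0273 with library size alone, and 0.164 without *Bmpr1a*-cKO library 3. In bulk tissue, fewer cells of a type and less RNA per cell cannot be told apart.

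*Bmpr1b* (chromosome 3, 141837136 to 142169425), a second type 1 receptor for BMPs, was counted at 15.8, 15.9, 14.6 and 19.9 CPM in control and at 15.5, 11.7, 14.1 and 13.6 CPM in *Bmpr1a*-cKO libraries. Its ranges overlapped between genotypes, and control library 4 was the highest of the 8. The Log2FC was -0.29 (95% interval -0.54 to -0.044, FDR = 0.0718 by edgeR), so that the interval of the difference reached from -31.2% to -2.99%. Without control library 4 the Log2FC was -0.19 and the FDR 0.252, and the FDR was 0.0437 without control library 3 and 0.0333 without *Bmpr1a*-cKO library 1. The Log2FC of *Bmpr1b* was below 0 in every fit run.

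*Acvr1* (chromosome 2, 58388644 to 58567157), which encodes the type 1 receptor ALK2, rose. Its level was 31.0, 31.2, 29.9 and 32.1 CPM in control and 35.3, 39.6, 35.7 and 38.0 CPM in *Bmpr1a*-cKO ovaries, and the genotypes did not overlap. The Log2FC was 0.26 (SE 0.068, 95% interval 0.12 to 0.41, FDR = 0.00937 by edgeR), a difference of 19.9% with an interval of 8.40% to 32.7%. In each of the 8 fits that left out 1 library the FDR was below 0.05, at most 0.0454. With scaling to germ cell markers the call was lost (Log2FC of 0.020, FDR = 0.950 by edgeR). Relative to *Bmpr1a* in the same library, *Acvr1* stood at 0.173 to 0.204 in control and 0.239 to 0.267 in mutant ovaries, in RPKM. *Bmpr1a* held the largest share of the summed RPKM of the 3 type 1 receptors followed here, at 78.8% ± 1.60 in control and 75.4% ± 0.772 in mutant ovaries. This share counts transcripts of the somatic cells, which keep *Bmpr1a*, and those of the recombined allele. It does not show which receptor the germ cells of mutant ovaries use. The share of *Acvr1* was 14.8% ± 0.871 and 18.9% ± 0.790, and that of *Bmpr1b* was 6.39% ± 0.896 and 5.68% ± 0.813 (SD, n = 4 each). The summed level of the 3 genes was 43.5 ± 2.42 RPKM in control and 40.6 ± 1.79 RPKM in *Bmpr1a*-cKO ovaries, with overlapping ranges.

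**Figure D3:**
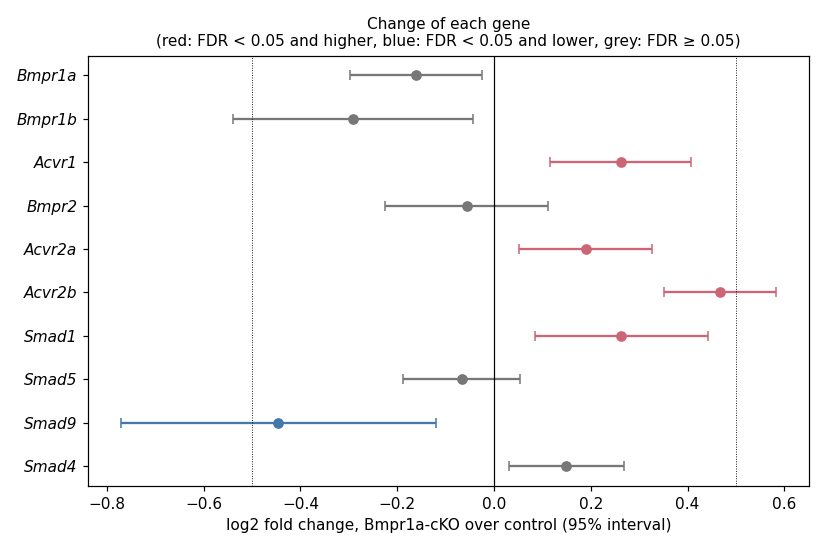
Log2FC of *Bmpr1a*-cKO over control (x axis) of the 10 genes with the 95% interval of edgeR; red marks an FDR below 0.05 with a higher level, blue an FDR below 0.05 with a lower level, grey an FDR of 0.05 or above, and dotted lines an absolute Log2FC of 0.5. *Acvr2b* has the highest estimate at 0.47 and *Smad9* the lowest at -0.45, and both estimates lie inside the dotted lines.

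Of the type 2 receptors, *Acvr2b* changed most. *Acvr2b* (chromosome 9, 119402118 to 119434995, plus strand), the activin receptor that also serves BMPs, had a level of 100.9, 102, 100.7 and 95.2 CPM in control ovaries. In *Bmpr1a*-cKO ovaries its level was 136, 132, 142 and 139.8 CPM. Each mutant library was above each control library, and the spread within a genotype (SD of 3.04 CPM for control and of 4.38 CPM for mutant ovaries) was small against the difference. The Log2FC was 0.47 (SE 0.054, 95% interval 0.35 to 0.58, FDR = 1.70e-05 by edgeR), a rise of 38.1% with an interval of 27.5% to 49.7%. It was called in each of the 8 fits with 1 library left out, with a Log2FC of 0.44 to 0.49. With scaling to germ cell markers the call was lost (Log2FC of 0.24, FDR = 0.381 by edgeR).

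Upstream sequence is shown for *Acvr2b* and *Smad9*, the members with the highest and the lowest Log2FC, as the stretch a factor acting at the promoter would meet. The bases come from RefSeq on GRCm38.p6, which listed a promoter for 9 of the 10 genes, and they stop before the first base of the GENCODE gene model. Capitals mark matches to 2 motifs bound by SMADs, GGCGCC and GTCTAGAC, each of which reads the same on both strands and which do not overlap each other here. The stretches are chr9:119401928-119402117 and chr3:54755332-54755581, both on the plus strand and written 5′ to 3′.
Acvr2b: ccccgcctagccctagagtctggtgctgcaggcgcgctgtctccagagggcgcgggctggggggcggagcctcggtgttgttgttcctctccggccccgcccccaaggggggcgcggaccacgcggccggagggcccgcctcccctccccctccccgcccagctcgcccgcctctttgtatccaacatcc
Smad9: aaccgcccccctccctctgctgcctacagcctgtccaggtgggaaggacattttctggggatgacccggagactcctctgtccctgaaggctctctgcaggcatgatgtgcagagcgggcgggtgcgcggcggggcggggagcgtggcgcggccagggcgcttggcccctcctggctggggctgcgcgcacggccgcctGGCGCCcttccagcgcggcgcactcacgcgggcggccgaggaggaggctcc
Both stretches were rich in G and C, at 74.7% of 190 bases with 18 CpG for *Acvr2b* and 73.2% of 250 bases with 24 CpG for *Smad9*. The *Smad9* stretch held 1 match to GGCGCC, a motif found in 9.59% of all 32851 RefSeq promoters over the same window, and 0 to GTCTAGAC, found in 0.167%. The *Acvr2b* stretch held 0 full matches to either, where 6.61% and 0.146% of promoters held one in its window. Shorter parts of the motifs were not searched for or marked in either stretch. A match is a description of letters and not a bound site.

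*Acvr2a* (chromosome 2, 48814109 to 48903269), its close paralogue, rose less. It had 44.0, 48.4, 50.5 and 48.2 CPM in control and 52.6, 56.2, 54.1 and 54.6 CPM in *Bmpr1a*-cKO libraries, with no overlap. The Log2FC was 0.19 (95% interval 0.051 to 0.33, FDR = 0.0386 by edgeR), and its direction turned under scaling to germ cell markers (-0.040). The call was lost without control library 1, 2 or 4 and without *Bmpr1a*-cKO library 2, 3 or 4 (FDR of 0.0574 to 0.127), and also with DESeq2 (FDR = 0.0615). *Orc4* overlaps *Acvr2a* on the opposite strand.

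*Bmpr2* (chromosome 1, 59763400 to 59879014), the type 2 receptor dedicated to BMP and related ligands, was counted at 197, 231, 181 and 235 CPM in control and at 206, 213, 189.7 and 205 CPM in *Bmpr1a*-cKO libraries. The mutant libraries lay inside the range of the controls. The Log2FC was -0.057 (FDR = 0.634 by edgeR), with a 95% interval of -14.4% to 8.01% for the difference. As a share of the summed RPKM of the type 2 receptors, *Acvr2b* went from 55.8% ± 2.32 to 62.7% ± 1.47, *Bmpr2* from 25.8% ± 2.64 to 20.2% ± 1.11, and *Acvr2a* from 18.5% ± 1.07 to 17.1% ± 0.507 (SD, n = 4 each). The shares of *Acvr2b* and of *Bmpr2* did not overlap between genotypes, and those of *Acvr2a* did. With TMM scaling, the summed level of the 3 type 2 receptors was 44.4 to 47.4 RPKM in control and 55.4 to 56.6 RPKM in mutant libraries, 1.23 times the control mean. The sum was not computed under other scalings.

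**Figure D4:**
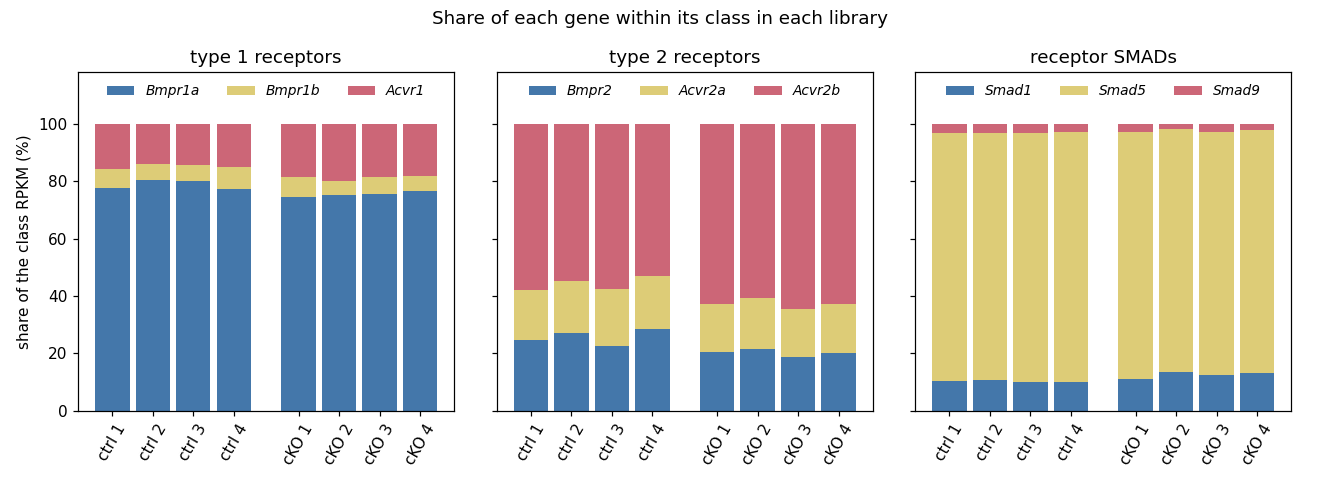
Share of each gene in the summed RPKM of its class (y axis, percent, stacked to 100) in each of the 8 libraries. *Bmpr1a* makes up 77.3% to 80.3% of the 3 type 1 receptors in control and 74.6% to 76.4% in mutant libraries, *Acvr2b* leads the type 2 receptors in every library, and *Smad5* makes up at least 84.5% of the receptor SMADs in every library. The share of *Bmpr1a* in mutant libraries includes transcripts of somatic cells, which keep the gene, and of the recombined allele.

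Among the receptor SMADs, *Smad5* (chromosome 13, 56703010 to 56742377) dominated and was not detectably different. It was counted at 310.4, 343, 312 and 341 CPM in control and at 310.2, 318, 305 and 315 CPM in *Bmpr1a*-cKO libraries. The ranges overlapped, with a Log2FC of -0.067 (FDR = 0.411 by edgeR) and a 95% interval of the difference of -12.2% to 3.79%. *Gm27301* overlaps *Smad5* on the same strand, and how reads of the overlap were assigned is not given in the sources used here.

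*Smad1* (chromosome 8, 79338395 to 79399518), whose protein is phosphorylated by the same type 1 receptors as SMAD5, had 31.2, 35.8, 30.5 and 33.1 CPM in control and 34.1, 43.4, 37.5 and 40.9 CPM in *Bmpr1a*-cKO libraries. It rose by the test with TMM scaling (FDR = 0.0847 with library size alone), although the lowest mutant library was below the highest control library. The Log2FC was 0.26 (SE 0.084, 95% interval 0.084 to 0.44, FDR = 0.0277 by edgeR), and leaving out control library 1, 3 or 4 or *Bmpr1a*-cKO library 2 or 4 brought the FDR to between 0.0621 and 0.117. Its share of the summed RPKM of the receptor SMADs was 10.2% ± 0.305 in control and 12.6% ± 1.08 in mutant ovaries (SD, n = 4 each).

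*Smad9* (chromosome 3, 54755582 to 54801257, plus strand), the least abundant receptor SMAD, fell. Its level was 8.80, 9.12, 8.71 and 8.39 CPM in control and 7.63, 4.76, 7.96 and 5.87 CPM in *Bmpr1a*-cKO ovaries. All mutant libraries were below all controls, and the mutant libraries were spread more widely, with a coefficient of variation of 23.0% against 3.42% in control. The Log2FC was -0.45 (SE 0.15, 95% interval -0.77 to -0.12, FDR = 0.0387 by edgeR). Without *Bmpr1a*-cKO library 2, the lowest of the 8, the Log2FC was -0.31 and the FDR 0.150, and the call was also lost without *Bmpr1a*-cKO library 4 (FDR = 0.105) and without control library 1, 2, 3 or 4 (FDR of 0.0593 to 0.0760). *Smad9* held 3.21% ± 0.192 of the receptor SMAD level in control and 2.48% ± 0.617 in mutant ovaries.

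*Smad4* (chromosome 18, 73639009 to 73703780), the partner of all receptor SMADs, was counted at 144, 163, 155 and 160.4 CPM in control and at 174, 170.1, 176 and 171 CPM in *Bmpr1a*-cKO libraries. Every mutant library was higher than every control library. The Log2FC was 0.15 (95% interval 0.031 to 0.27), and it missed the threshold with an FDR of 0.0552 by edgeR. It passed without control library 2 (FDR = 0.0478), and scaling to germ cell markers turned the direction (Log2FC of -0.074).

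Other genes of the TGFβ family served as a comparison. Of 8 further receptors and co-receptors of the family, all were tested and 1 passed an FDR of 0.05, against 29.8% of all genes tested. Their median Log2FC was -0.057. The gene that passed was *Amhr2*, the type 2 receptor of anti-Müllerian hormone, which fell from 191 ± 9.41 to 159 ± 15.7 CPM (SD, n = 4 each; Log2FC of -0.26, FDR = 0.0112 by edgeR). With scaling to germ cell markers its Log2FC was -0.47 and the call was lost (FDR = 0.0820). The type 1 receptors among the 8 did not pass, with a Log2FC of -0.038 for *Tgfbr1*, -0.019 for *Acvr1b* and 0.025 for *Acvrl1* (FDR = 0.864 by edgeR for the last). *Acvrl1* is not part of the type 1 sums and shares above. The 4 SMADs outside the BMP set all changed at an FDR below 0.05, where 29.8% of all genes tested did. *Smad2*, a receptor SMAD of activin and TGFβ, rose from 130 ± 2.84 to 152 ± 5.80 CPM (Log2FC of 0.23, FDR = 0.00488 by edgeR), although scaling to germ cell markers turned it to -0.0057. Its partner *Smad3* fell, from 157 to 180.1 CPM in control to between 129.6 and 141 CPM in mutant libraries (Log2FC of -0.32, FDR = 0.00100 by edgeR). The inhibitory SMADs, which BMP signalling induces and which restrain it in turn, fell: *Smad6* from 39.1 ± 2.52 to 31.7 ± 1.74 CPM (Log2FC of -0.31, FDR = 0.00504 by edgeR) and *Smad7* from 82.6 ± 1.70 to 70.5 ± 7.59 CPM (Log2FC of -0.23, FDR = 0.0256 by edgeR). The call of *Smad7* was lost without control library 1 and without *Bmpr1a*-cKO library 3 or 4 (FDR of 0.0649 to 0.0865), and also with scaling to germ cell markers (Log2FC of -0.44, FDR = 0.0999), under which *Smad3* had a Log2FC of -0.55 and *Smad6* of -0.53.

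Genes that act on the receptors and SMADs were counted from lists. Of 6 genes for BMP co-receptors and the pseudoreceptor BAMBI, 4 were tested. By edgeR 0 passed, against 29.8% of all genes tested, and 2 had an unadjusted p below 0.05, against 39.8%. These were *Rgma*, with a Log2FC of 0.27 (FDR = 0.0534 by edgeR and 0.0463 by limma-voom), and *Neo1*, with a Log2FC of -0.14 (FDR = 0.0749 by edgeR and 0.0214 by DESeq2), which were the genes that limma-voom and DESeq2, respectively, called. Of 15 regulators of receptor and SMAD activity or turnover, all tested, 4 rose, 1 fell and 10 did not pass, with a median Log2FC of 0.12. The 5 of 15 called compare with 29.8% of all genes, the 4 higher with 17.3% and the 1 lower with 12.5%. *Ppm1a*, a phosphatase that acts on receptor SMADs, rose from 75.6 ± 1.27 to 104 ± 2.37 CPM (SD, n = 4 each; Log2FC of 0.46, SE 0.054, FDR = 1.80e-05 by edgeR), with every mutant library above every control library. *Nedd4l*, a ubiquitin ligase of the pathway, had a Log2FC of 0.36 (FDR = 0.00338 by edgeR), *Map3k7*, the kinase TAK1 of the SMAD-independent arm, 0.27 (FDR = 0.00282 by edgeR), and the SMAD corepressor gene *Skil* 0.27 (FDR = 0.0136 by edgeR). *Smurf2*, a ubiquitin ligase that targets receptors and SMADs, was the gene that fell (Log2FC of -0.18, FDR = 0.0353 by edgeR). The call of *Skil* was lost without control library 1 (FDR = 0.0502), without *Bmpr1a*-cKO library 4 (FDR = 0.0599) and with library size alone (FDR = 0.0511). With scaling to germ cell markers the calls of all 4 genes that rose were lost, with a Log2FC of 0.23 for *Ppm1a* (FDR = 0.403), 0.13 for *Nedd4l* (FDR = 0.645), 0.038 for *Map3k7* (FDR = 0.901) and 0.021 for *Skil* (FDR = 0.947).

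As a readout of the pathway, 7 of 10 BMP target genes fell, against 12.5% of all genes tested, and 3 did not pass. All 10 had a Log2FC below 0, with a median of -0.70. *Msx2* had a Log2FC of -1.81, *Gata2* of -1.71, *Msx1* of -1.20 and *Id1* of -0.86 (FDR of 1.54e-07, 4.07e-08, 1.68e-07 and 9.78e-06 by edgeR). The absolute Log2FC of each of these 4 genes was larger than that of any of the 10 receptor and SMAD genes. They were named for the lowest FDR of the list, which favours large changes. Over all 10 targets the Log2FC ran from -1.81 to -0.015. The list was chosen with earlier results of these data known. It includes *Zglp1*, *Msx1* and *Msx2*, which the study reported as lower in these ovaries. For these genes the count repeats a reported result.

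Cell type markers moved between the genotypes alongside these values. For the counts that follow, 17.3% of all genes tested rose and 12.5% fell at an FDR below 0.05. Of 8 markers of pregranulosa cells, the supporting cells of the ovary, 6 fell (*Foxl2*, *Wnt4*, *Fst*, *Rspo1*, *Irx3* and *Runx1*). The summed level of the 8 was 1339 to 1614 CPM in control and 1138 to 1345 CPM in *Bmpr1a*-cKO libraries. The most abundant of them, *Kitl*, had a mean of 634 CPM in control and 581 CPM in mutant libraries and did not pass (FDR = 0.290 by edgeR). Of 5 macrophage markers 4 rose (*Csf1r*, *Adgre1*, *C1qa* and *C1qb*), with a summed level of 21.2 to 27.2 CPM in control and 30.3 to 39.5 CPM in mutant libraries, which did not overlap. Of 10 germ cell markers 3 rose (*Dazl*, *Dnd1* and *Tdrd5*) and 3 fell (*Mael*, *Tdrd9* and *Mov10l1*), and their summed level overlapped, at 775 to 1032 CPM in control and 781 to 1216 CPM in mutant libraries. Of 5 Sertoli cell markers *Sox9* and *Cyp26b1* fell, with a summed level of 15.5 to 17.2 CPM in control and 11.5 to 12.6 CPM in mutant libraries. Of 4 mesonephros markers *Emx2* fell and 3 did not pass. The list went from a summed 129 to 159 CPM to between 100.5 and 120 CPM. Most of that sum was *Emx2*, with a mean of 119 CPM in control and 99.1 CPM in mutant libraries. The sum therefore mainly follows *Emx2* and does not show how much mesonephros a pool held. Of the 6 stromal, 5 endothelial and 4 surface epithelium markers, and of the 2 erythroid markers tested, 0 passed by edgeR, limma-voom and DESeq2, and 0 had an unadjusted p below 0.05 by edgeR. The part of these shifts in the changes of the receptor and SMAD genes was not tested.

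The scaling of the libraries touched the calls. In the sum of the germ cell markers the most abundant gene weighs most. This was *Dazl*, with a mean of 327 CPM in control and 506 CPM in mutant libraries. With TMM *Dazl* was itself called as higher (Log2FC of 0.63, FDR = 0.00101 by edgeR), and its part in the scaling was not tested. Scaling to the summed germ cell markers moved the median Log2FC of all genes to -0.24. Under it *Smad9* (Log2FC of -0.67, FDR = 0.0329) was the member called, and *Acvr2b* (Log2FC of 0.24, FDR = 0.381) and *Acvr1* (Log2FC of 0.020, FDR = 0.950) were not. The Log2FC under it was -0.39 for *Bmpr1a*, -0.52 for *Bmpr1b*, -0.29 for *Bmpr2* and -0.30 for *Smad5*, with none called. Of all genes with an FDR below 0.05, 58.0% were higher with TMM, 43.1% with library size alone and 23.0% with germ cell markers. With library size alone *Acvr2b* and *Acvr1* were called as higher and *Bmpr1a*, *Bmpr1b* and *Smad9* as lower.

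**Figure D5:**
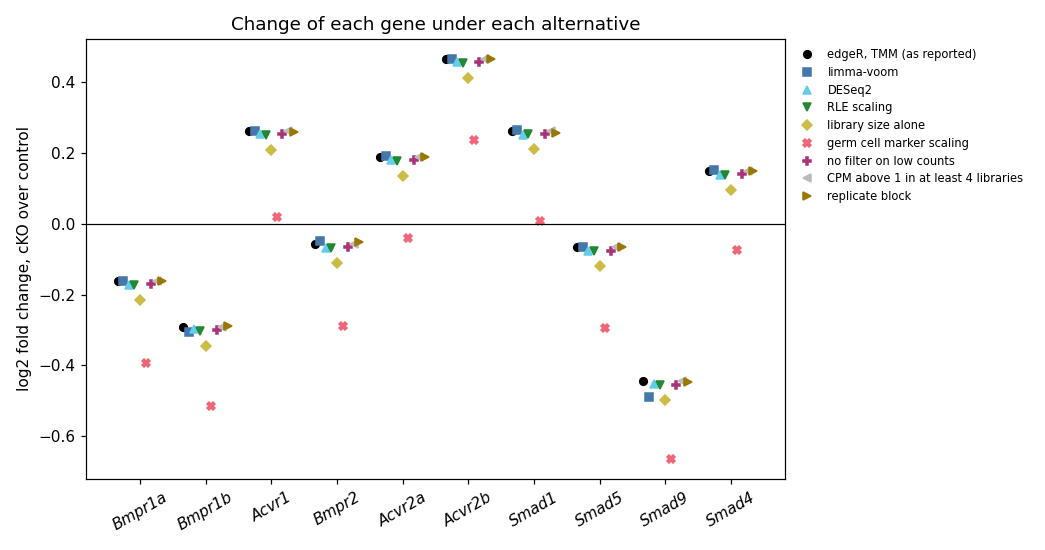
Log2FC of *Bmpr1a*-cKO over control (y axis) of the 10 genes under the reported fit and 8 alternatives, each with its own symbol. Scaling to germ cell markers lies lowest for every gene, below 0 for *Acvr2a* (-0.040) and *Smad4* (-0.074), and the other 7 alternatives lie nearer to the reported value.

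The expression pattern most like that of *Bmpr1a* was sought among all genes tested, by Pearson's correlation of log2 CPM over the 8 libraries. It was closest for *Ubtd2* (r = 0.987), *Ammecr1l* (r = 0.978) and *Ccng2* (r = 0.977). These points share the genotype and the library, and the largest of many correlations is high by selection. The Log2FC of the 3 genes was -0.14, -0.14 and -0.17, near the -0.16 of *Bmpr1a*, with FDRs of 0.110, 0.109 and 0.0942 by edgeR.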

How the data were processed

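Ovarian RNA was sequenced from strand-specific paired-end libraries of 4 control and 4 *Bmpr1a*-cKO pools. By the study's methods and the submitters' processing notes, the authors trimmed reads with Trimmomatic 0.39, mapped them to mm10 with STAR 2.5.2 and deposited raw counts per gene symbol. The annotation and strand setting of the counting are not given in the sources used here. A separate CPM table was not used.

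Counts were analysed in R 4.3.3 with edgeR 4.0.16 (filterByExpr, TMM, quasi-likelihood F test, genotype as factor, two-sided, Benjamini-Hochberg over all genes tested), with limma 3.58.1 (voom) and DESeq2 1.42.0 as alternatives, alongside other scalings and filters, the replicate number as a block and each library left out. Intervals cover 95% and come from the SE and its t distribution. In a simulation of this comparison on 14134 genes, 71 of 99 genes changed by a log2 of 0.5 and 91 of 100 changed by 1 were called, and 16 of 13935 unchanged genes were.

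RPKM used the union of exons in GENCODE vM21. By symbol, 24374 of 25239 genes matched it. No pair of libraries agreed within sampling noise. Litters are not known per library, so p-values measure the spread between pools.

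The members and lists were chosen with earlier results of these data known. Named are the 10 members, of each pathway list up to 4 genes with the lowest FDR below 0.05, the 3 genes most like *Bmpr1a* and, from marker lists, *Ddx4*, *Dazl* and genes at 0. Genes given beyond this rule (*Tgfbr1*, *Acvr1b*, *Acvrl1*, *Rgma*, *Neo1*, *Smurf2*, *Zglp1*, *Foxl2*, *Kitl*, *Alas2* and the markers that passed) were chosen after their values were seen. *Hjv* stands for the listed *Hfe2*.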

Additional observations from a re-analysis of the deposited data

How the results depend on the processing

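The Log2FC of the 10 genes kept its direction under limma-voom, DESeq2, RLE scaling, library size alone, both other filters, the replicate block and each left-out library. Scaling to germ cell markers, whose SE was near 0.19, reversed *Acvr2a* (-0.040), *Smad4* (-0.074) and *Smad2* (-0.0057), left *Acvr1* (0.020), *Acvr2b* (0.24) and *Smad1* (0.0091) below the threshold, and called 1727 of all genes (4242 as reported) and 1 of the 10 genes, a DEG. *Bmpr1a* passed with DESeq2 (-0.17) and library size alone (-0.22), and *Bmpr1b* with library size alone (-0.35). *Acvr2a* did not pass with DESeq2 (0.18), RLE (0.18), library size alone (0.14) or no filter (0.18), nor *Smad1* with library size alone (0.21). With 1 library left out, the Log2FC ran from -0.20 to -0.13 for *Bmpr1a*, -0.35 to -0.19 for *Bmpr1b*, 0.23 to 0.28 for *Acvr1*, -0.13 to -0.0088 for *Bmpr2*, 0.15 to 0.21 for *Acvr2a*, 0.44 to 0.49 for *Acvr2b*, 0.21 to 0.32 for *Smad1*, -0.094 to -0.052 for *Smad5*, -0.55 to -0.31 for *Smad9* and 0.11 to 0.16 for *Smad4*; 2 to 6 of the 10 genes passed an FDR of 0.05 and 0 to 1 were DEGs. Of all genes, 3101 to 5038 passed. The cause of these differences was not tested. With the longest transcript as the length, *Acvr1*, *Smad1* and *Acvr2a* took places 6, 7 and 8.

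Libraries with the same replicate number did not deviate together in every case (correlation of deviations 0.20, 0.16, 0.11 and -0.087), so the number was not taken as a pairing. With it as a block, *Bmpr1a* (-0.16, FDR = 0.0416) and *Smad4* (0.15, FDR = 0.0499) passed, and 4771 genes did in all.

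*Smad9* had the fewest counts of the 10 genes, at 64 to 133 per library, and the widest interval, and its coefficient of variation was 3.42% in control and 23.0% in *Bmpr1a*-cKO libraries. The part of depth in that interval was not tested.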

Other observations

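Ligands of these receptors were measured in the same libraries. Of 13 BMP and related ligand genes 8 passed the filter on low counts, of which 1 rose and 1 fell, with a median Log2FC of -0.25. Over all genes tested 17.3% rose and 12.5% fell. *Bmp7* rose from 23.9 ± 2.03 to 35.4 ± 5.48 CPM (SD, n = 4 each; Log2FC of 0.58, FDR = 0.000734 by edgeR), and *Bmp2* fell from 52.6 ± 2.24 to 41.6 ± 4.22 CPM (Log2FC of -0.35, FDR = 0.00307 by edgeR). For both genes the libraries of the genotypes did not overlap. Scaling to germ cell markers left *Bmp7* with a Log2FC of 0.31 and an FDR of 0.263, and *Bmp2* with a Log2FC of -0.55 and an FDR of 0.0318.

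Of 11 antagonists, which bind ligands outside the cell, 7 were tested and 2 passed, both lower, with a median Log2FC of -0.14. Over all genes tested 29.8% passed, and 12.5% passed as lower. *Chrd*, which encodes chordin, fell from 7.25 ± 0.888 to 4.12 ± 0.730 CPM (Log2FC of -0.80, FDR = 0.00132 by edgeR), and *Thpo* overlaps it on the opposite strand. *Fst*, which encodes follistatin and is also a marker of pregranulosa cells, fell from 177 ± 13.6 to 142 ± 11.1 CPM (Log2FC of -0.31, FDR = 0.00359 by edgeR), and its Log2FC was -0.53 with scaling to germ cell markers.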
